A study of Mus musculus with 18 samples.

Results

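Cd5, Cd69, Egr1, Egr2 and Nr4a1 are induced when the T cell receptor of a developing thymocyte is engaged. The regions described are the SMC1A and CTCF peaks that lie within 100 kb of the body of any of these 5 genes, of 21887 protein-coding genes in the annotation. They comprised 451 of the 207027 peaks in 7 peak lists, and merged into 78 of 35221 SMC1A regions and 123 of 63947 CTCF regions. The series profiled sorted DP (CD4+ CD8+ double-positive) thymocytes of Satb1 KO and WT mice by CUT&RUN, an assay that cuts DNA out of nuclei around an antibody-tethered nuclease and sequences it. The KO is conditional and was induced with tamoxifen, which the WT animals also received, and the labels name neither the Cre line nor the age. Peak lists of 7 of the 18 samples were analysed, 2 KO and 2 WT for SMC1A, and 2 KO and 1 WT for CTCF. A second WT CTCF library was not analysed here. Replicates 1 and 2 are batches 1 and 2 of the labels, which do not say whether they came from separate animals. All p-values thus measure the spread between these samples only, for limma mostly pooled over genes, and this spread may be technical.

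The T cell receptor of DP thymocytes is tested on self peptides, and the strength of the signal decides between death by neglect, positive selection and negative selection. CD5 is a surface receptor that dampens this signal and whose level follows it. CD69 is an early activation marker that holds cells in the thymus by removing the egress receptor S1PR1 from the surface. EGR1 and EGR2 are zinc finger transcription factors induced through the ERK pathway, and NR4A1 (Nur77) is an orphan nuclear receptor linked to negative selection. SMC1A belongs to cohesin, a ring-shaped complex that forms chromatin loops, and CTCF is a sequence-specific zinc finger protein that can stop cohesin on DNA. SATB1 organises chromatin and is plentiful in thymocytes. Peak lists measure neither transcription nor the Satb1 deletion, so they check neither the genotype nor the DP label.

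The SMC1A lists held 28151 and 20689 peaks in KO replicates 1 and 2, against 19882 and 20638 peaks in WT replicates 1 and 2. The CTCF lists held 55750 and 22928 peaks in the KO replicates and 38989 peaks in the WT library. The lists give no read depth, but a local background can be recovered from the fold and −log10 p of each peak. Near the 5 genes its median was 0.989 and 0.617 reads in the KO SMC1A libraries and 0.833 and 0.784 reads in the WT ones. It was 2.86 and 5.12 reads in the KO CTCF libraries and 1.63 reads in the WT one. KO CTCF replicate 2, the shortest CTCF list, thus had the highest background. The part of these differences in the counts of regions was not tested. Coordinates are mm10. The −log10 q values are those of the authors and rank peaks inside a list. The lowest value over the lists that hold a region also chose the regions named, although the lists differ in length. A region of 1 list enters that choice with its single value.

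RefSeq promoter windows (GRCm38.p6, the assembly that mm10 represents; 250 bases before to 50 after a start) show what lies under the start regions described later. They were found for Cd5 (1), Egr2 (5) and Nr4a1 (1), and those of Cd69 and Egr1 are named only. Each is printed 5′ to 3′ on the gene's strand. The capitals mark matches on either strand, to the E-box CAGGTG in Cd5 and to the CArG box in Egr2. In Nr4a1 they mark TGCGTCA and, read on the opposite strand, the longer CTCF core motif. The TGCGTCA motif was chosen after the sequence had been read.
Cd5, chr19:10738925-10739224, minus strand: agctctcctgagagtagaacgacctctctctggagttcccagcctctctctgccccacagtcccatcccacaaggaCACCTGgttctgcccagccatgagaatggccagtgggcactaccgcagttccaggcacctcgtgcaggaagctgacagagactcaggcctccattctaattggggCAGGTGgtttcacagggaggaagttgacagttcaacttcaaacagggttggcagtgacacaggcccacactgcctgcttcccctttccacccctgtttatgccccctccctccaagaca
Egr2 upstream start, chr10:67537316-67537615, plus strand: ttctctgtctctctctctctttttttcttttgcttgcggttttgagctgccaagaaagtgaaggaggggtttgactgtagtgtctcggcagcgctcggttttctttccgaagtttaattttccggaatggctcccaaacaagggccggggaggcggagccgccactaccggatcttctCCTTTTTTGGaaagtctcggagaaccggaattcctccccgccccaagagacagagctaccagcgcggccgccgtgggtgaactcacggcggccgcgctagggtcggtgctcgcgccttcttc
Egr2 downstream start, chr10:67537620-67537919, plus strand: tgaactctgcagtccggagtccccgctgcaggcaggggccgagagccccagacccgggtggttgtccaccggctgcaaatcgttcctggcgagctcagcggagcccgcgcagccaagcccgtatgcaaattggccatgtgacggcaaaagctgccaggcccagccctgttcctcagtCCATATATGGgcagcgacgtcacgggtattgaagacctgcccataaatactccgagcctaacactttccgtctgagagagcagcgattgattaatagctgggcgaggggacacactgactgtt
Nr4a1 internal start, chr15:101266596-101266895, plus strand: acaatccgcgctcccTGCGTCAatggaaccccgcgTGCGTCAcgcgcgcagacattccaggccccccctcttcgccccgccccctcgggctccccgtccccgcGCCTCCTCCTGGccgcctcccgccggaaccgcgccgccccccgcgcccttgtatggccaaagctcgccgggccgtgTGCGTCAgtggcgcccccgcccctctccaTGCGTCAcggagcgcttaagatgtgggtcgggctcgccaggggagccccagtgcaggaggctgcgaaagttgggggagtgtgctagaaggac

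The Cd5 window held 2 E-boxes, a motif found in 20.2% of 32851 RefSeq promoter windows. Each Egr2 window printed held 1 CArG box, the site of serum response factor, against 1.63% of all windows. The first Egr2 window, at 67535249 to 67535548, is not printed and held no CArG box. The others not printed overlap the downstream one and share its CArG box. Upstream and downstream refer to the windows printed. The Nr4a1 window held 4 copies of TGCGTCA, and 2.12% of windows held at least 1 copy. It was the 1 window of 32851 with 4 or more, but the motif was chosen after this window had been read, so its rarity is no test. It also held 1 CTCF core match (2.43% of windows) and 1 EGR site, GCGNGGGCG (5.55%), which overlaps none of the other matches. None of the windows printed held the full cyclic AMP element TGACGTCA (1.79% of windows) or the NR4A site AAAGGTCA (1.51%). GC content was 57.3% in Cd5, 56.7% in the upstream and 59.7% in the downstream Egr2 window, and 72.3% in Nr4a1, against a mean of 53.8% over all windows. A match describes the letters of the window and is no evidence of binding.

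**Figure D1:**
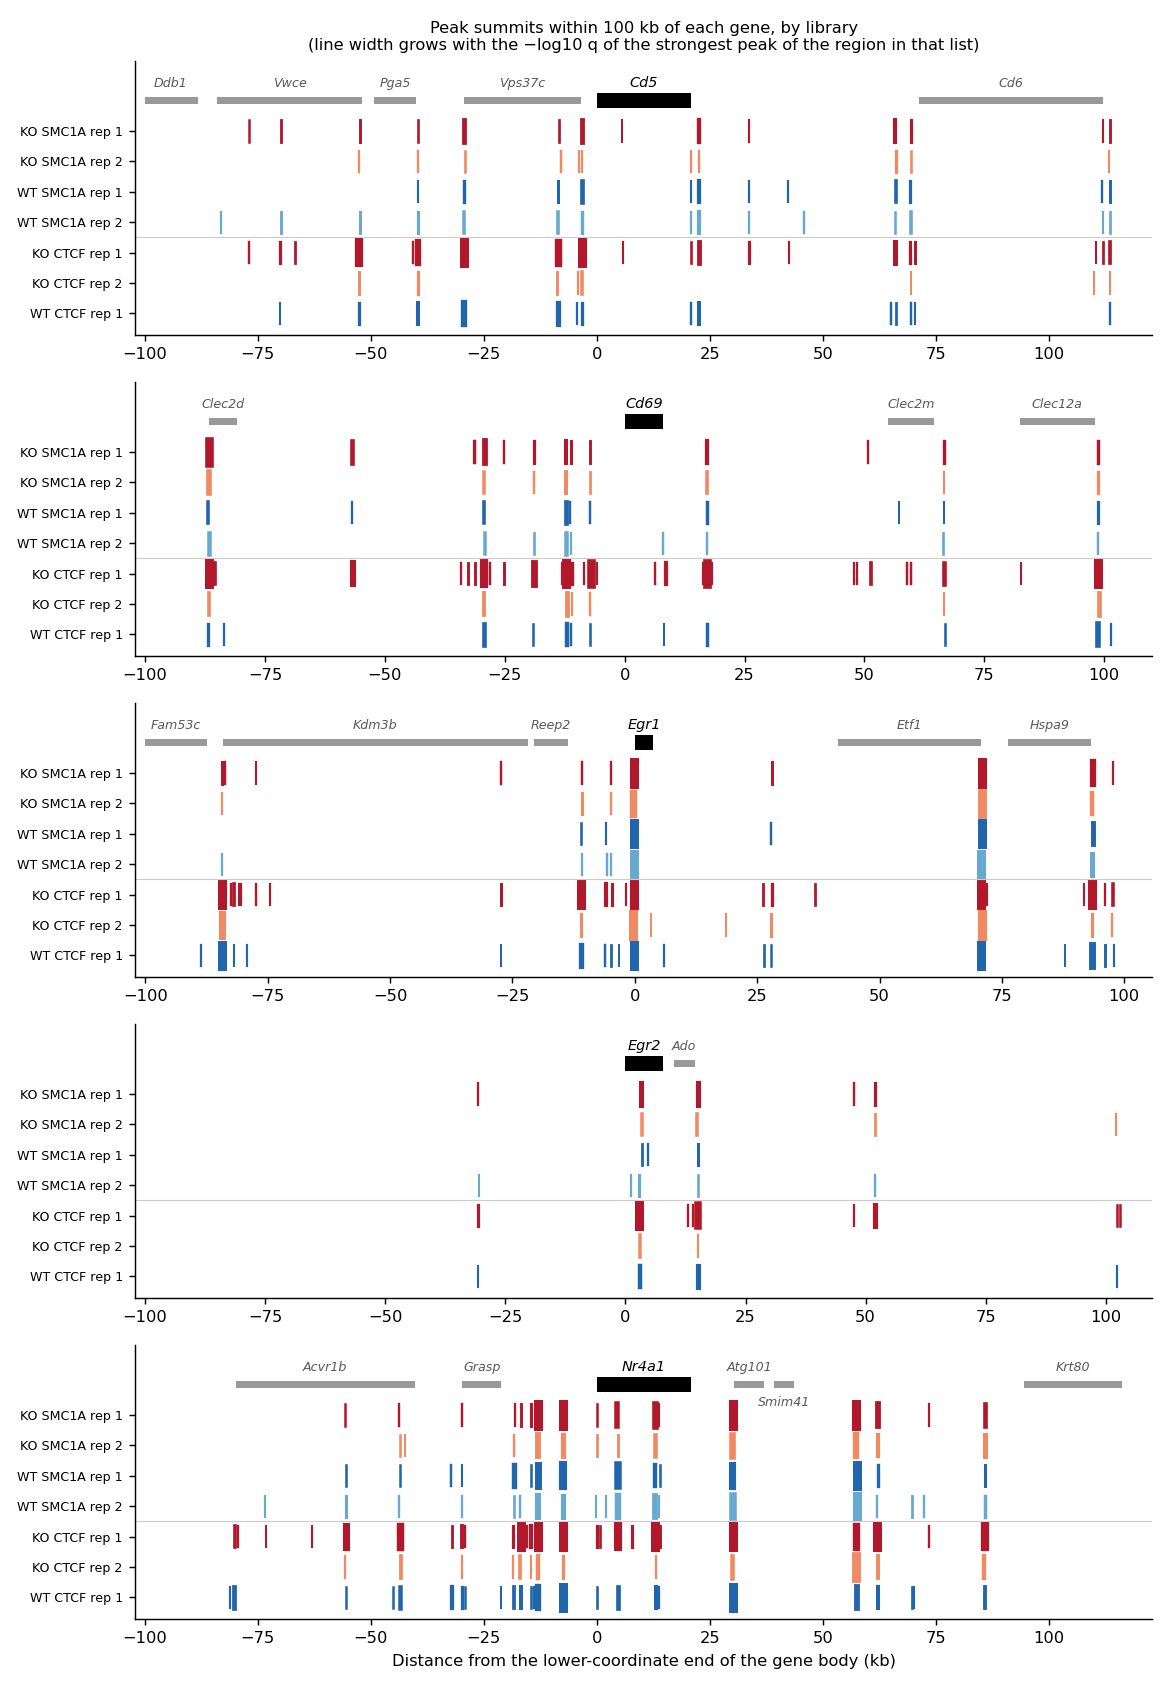
Peak summits of the 7 lists within 100 kb of each gene, by library (rows, KO above WT for each mark) against distance from the lower-coordinate end of the gene body in kb (horizontal axis). Each region is drawn as 1 line per list, at its strongest peak there, so lines can be fewer than peaks. Line width grows with −log10 q, black bars are the 5 genes and grey bars the neighbouring genes. The widest SMC1A lines lie at Egr1 and Nr4a1, and KO CTCF replicate 1 has the most lines at each of the 5 genes.

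Egr1 had the 2 SMC1A regions with the highest lower −log10 q (the lowest value over the lists that hold a region) of the 5 genes, and both were in all 4 SMC1A lists. The gene lies at chr18:34861207-34864956. The region over its lower-coordinate end, at 34859794 to 34861836, had −log10 q values of 93.8 and 47.0 in KO and 83.3 and 110.6 in WT. The number of reads piled up at its summit, recovered from the deposited values, was 66 and 35 in KO and 58 and 70 in WT. The genotypes overlapped, KO replicate 2 being the lowest library. The summits lay at 34861003 and 34860929 in KO and at 34860985 and 34860995 in WT, so all 4 were just below the gene's lower end. CTCF peaks lay over the same place in all 3 CTCF lists, at 34859708 to 34861945, with a −log10 q of 292 and 75.7 in KO and 82.0 in WT. They ranked at the 99.0 and 99.2 percentiles of the KO CTCF lists and at the 98.1 percentile of the WT list. A weak CTCF region at the gene's upper end, 34864471 to 34864670, was in KO replicate 2 alone (−log10 q of 1.32).

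The other of these SMC1A regions lay 66.7 kb above Egr1, at 34931621 to 34932587. It sits at the upper end of Etf1, which encodes the translation release factor eRF1. Its pile-up was 84 and 46 reads in KO and 65 and 62 reads in WT. The KO libraries lay on both sides of the WT ones, in which the values were nearly equal. The CTCF region there, at 34930354 to 34932868, had a −log10 q of 488 and 62.2 in KO and 140 in WT. The 1 SMC1A region lost in KO (in both WT lists and neither KO list) near any of the 5 genes also lay at Egr1, 5.52 kb below the gene at 34855241 to 34855685. Its pile-up was 7 and 9 reads in WT, with a −log10 q of 2.89 and 5.23. It was thus a weak peak, at the 7.7 and 33.0 percentiles of the WT lists. Leaving out KO replicate 1 or 2 gave 7 or 2 lost regions near the 5 genes in place of 1, and leaving out WT replicate 1 or 2 gave 10 or 5.

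Nr4a1, at chr15:101253902-101274795 on the plus strand, had the most cohesin peaks of the 5 genes, and none of its cohesin regions was lost or gained (gained: held by both KO lists and neither WT list). Its SMC1A lists held 17 and 12 peaks in KO and 15 and 20 peaks in WT within 100 kb. Of its 23 merged SMC1A regions, 10 were in all 4 lists and 4 in 3. The printed window sits under a region at 101266346 to 101267257, with pile-ups of 40 and 23 reads in KO and 24 and 31 reads in WT. Both WT values lay between the KO values. The 4 SMC1A summits there lay between 48.5 and 93.5 bp from the middle of the CTCF core match, and the 3 CTCF summits between 70.5 and 235.5 bp from it. The 5′ end of the gene itself had a weaker region, at 101253672 to 101254165, with pile-ups of 15 and 12 reads in KO and 9 reads in WT replicate 2. WT replicate 1 held no SMC1A peak there. CTCF was present at 101253735 to 101254199 in KO replicate 1 (−log10 q of 11.7) and WT (6.79) but not in KO replicate 2. A further CTCF region at this end, 101254480 to 101254991, was in KO replicate 1 alone (7.06).

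Of the SMC1A regions near Nr4a1, that with the highest lower −log10 q lay 8.33 kb above the gene at 101283123 to 101284963, beside Atg101, an autophagy initiation gene. It had a −log10 q of 64.9 and 39.9 in KO and 44.0 and 47.8 in WT, and pile-ups of 50 and 31 reads in KO and 36 and 37 reads in WT. For CTCF the corresponding region was 36.5 kb above the gene at 101311245 to 101311448, with a −log10 q of 46.2 and 58.2 in KO and 33.5 in WT. Both places were held by all 7 lists. A pair of further regions was chosen after their values were seen. At 101235323 to 101236039, 17.9 kb below the gene, the pile-up was 10 and 8 reads in KO and 28 and 12 reads in WT. Inside the gene, at 101258059 to 101258938, it was 38 and 13 reads in KO and 43 and 36 reads in WT. The genotypes did not overlap 17.9 kb below the gene, while inside the gene KO replicate 1 fell between the WT libraries.

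Egr2, at chr10:67534469-67542188 on the plus strand, had the fewest regions, 8 for SMC1A and 9 for CTCF. Its SMC1A region with the highest lower −log10 q lay over the printed starts, at 67536013 to 67538032 within the gene. The pile-up there was 27 and 16 reads in KO and 12 and 14 reads in WT. Both KO libraries were above both WT libraries. The CTCF region at the same place, 67535931 to 67538070, had 94 and 35 reads in KO and 28 reads in WT. The CTCF region with the highest lower −log10 q, at 67585908 to 67586855, was in KO replicate 1 alone (27.7). Over the starts, the CTCF summits lay between 90.5 and 111.5 bp from the CArG box of the upstream window, and between 393.5 and 414.5 bp from that of the downstream window. The SMC1A summits were more spread, between 57.5 and 440.5 bp from the downstream CArG box. The other SMC1A region of all 4 lists lay 6.83 kb above the gene near Ado, a thiol dioxygenase gene, at 67549018 to 67549939. It had pile-ups of 30 and 18 reads in KO and 18 and 14 reads in WT, so the lower KO library equalled the higher WT one. WT replicate 2 alone held a small region at the first start of the gene, 67535433 to 67535632, with 7 reads.

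Cd5, at chr19:10718107-10739026 on the minus strand, had only a weak peak at its start. That region, at 10738831 to 10739211, lies under the printed window. Its pile-up was 8 reads in KO replicate 2 and 8 and 8 reads in WT, and KO replicate 1 held no SMC1A peak there. CTCF was present at 10738669 to 10739279 in KO replicate 1 (−log10 q of 7.06) and WT (5.15) but not in KO replicate 2. Just upstream, 1.47 kb beyond the gene at 10740500 to 10741058, pile-ups were 26 and 11 reads in KO and 24 and 26 reads in WT. This region was chosen after its values were seen, and KO replicate 2 stood apart from the other 3 libraries. The SMC1A region with the highest lower −log10 q was in 2 lists, at 10648144 to 10648547 in Vwce. It had 15 reads in KO replicate 1 and 14 reads in WT replicate 2, and no peak in the other two lists. Of the regions in all 4 lists, the highest lay 28.9 kb away at 10688429 to 10689229 in Vps37c, an ESCRT-I subunit gene, with 27 and 13 reads in KO and 17 and 17 reads in WT. For CTCF the highest was at nearly the same place, 10687913 to 10689280, with a −log10 q of 60.5 in KO replicate 1 and 38.0 in WT and no peak in KO replicate 2. Of those in all 3 CTCF lists it was 3.02 kb below the gene at 10714376 to 10715089, with a −log10 q of 73.8 and 14.7 in KO and 12.3 in WT.

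Cd69, at chr6:129267324-129275375, had no SMC1A peak in its body in 3 of the 4 lists. WT replicate 2 held 1, over the upper end of the gene at 129275236 to 129275435, with 12 reads. A CTCF region lay there too, at 129275220 to 129276322. Its −log10 q was 20.0 in KO replicate 1 and 1.72 in WT, and KO replicate 2 held no CTCF peak there. The SMC1A region with the highest lower −log10 q lay 11.6 kb below the gene at 129254724 to 129255714. Its pile-up was 21 and 18 reads in KO and 24 and 22 reads in WT, so both KO libraries were below both WT libraries. The CTCF region there, at 129254805 to 129255710, had a −log10 q of 97.4 and 25.2 in KO and 22.0 in WT. The CTCF region with the highest lower −log10 q was in KO replicate 1 alone, at 129210224 to 129211163 (35.6). Of those in all 3 lists it was 90.2 kb above the gene at 129365564 to 129367208, with a −log10 q of 77.3 and 24.1 in KO and 32.0 in WT. At the far end of the neighbourhood, in Clec2d, which encodes a ligand of a natural killer cell receptor, the order was the opposite. That region, at 129180300 to 129182085 and chosen after its values were seen, had 48 and 28 reads in KO and 19 and 24 reads in WT.

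**Figure D2:**
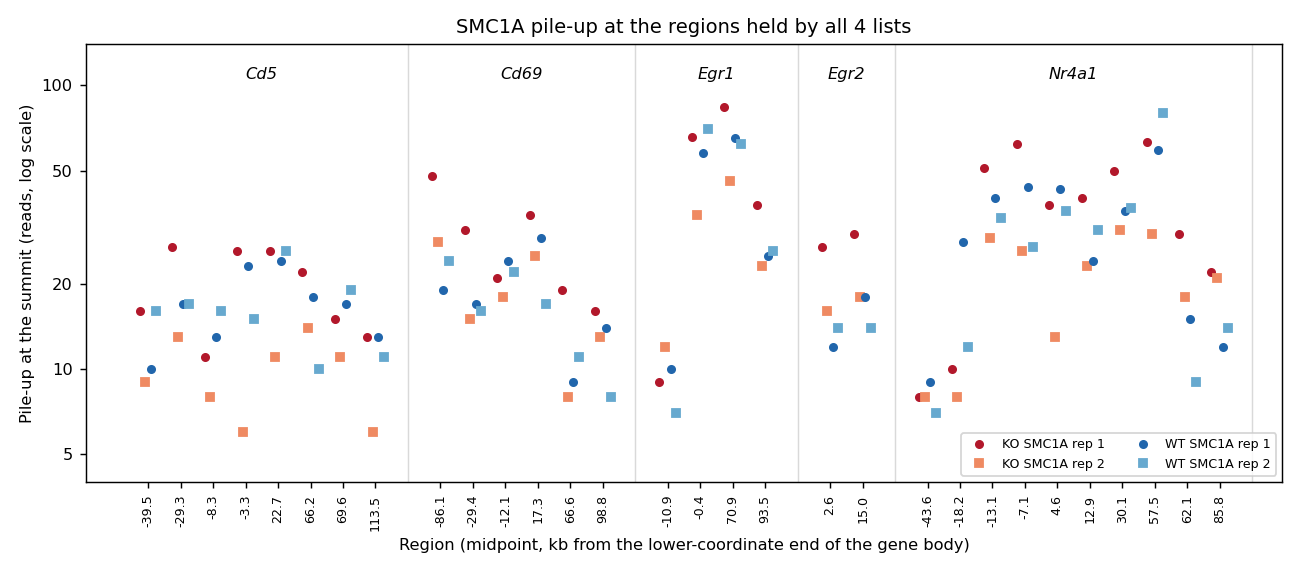
SMC1A pile-up in reads (vertical log axis) at the 30 regions near the 5 genes that all 4 lists hold, ordered by distance of the region's midpoint from the lower-coordinate end of the gene body in kb (horizontal axis). Each point is 1 library. KO replicate 1 is the highest library at 21 regions and KO replicate 2 the lowest at 20, and genome-wide medians stand in the same library order.

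At the 30 SMC1A regions held by all 4 lists, KO replicate 1 was the highest library 21 times and KO replicate 2 the lowest 20 times. The median pile-up was 27 and 15.5 reads in KO and 18.5 and 16.5 reads in WT. The background at these regions had a median of 1.00 and 0.639 reads in KO and 0.833 and 0.789 reads in WT, and ran in the same order as the pile-up. Pile-ups were not scaled to depth, and the part of the background in these differences was not tested. KO exceeded WT at 22 of the 30 regions in batch 1 and at 10 in batch 2. Both KO libraries were above both WT libraries at 4 regions, beside 13.8% of 12290 such regions genome-wide. These were the Egr2 starts, the Clec2d region and the 2 farthest regions above Nr4a1. Both KO libraries were below both WT libraries at 4 regions, beside 7.08% genome-wide: 2 at Cd5, 1 at Cd69 and 1 at Nr4a1. No test was made of these counts.

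Counting peaks rather than reads, cohesin peaks made up a smaller share of the list near the 5 genes in KO. Over all 12546 genes tested this direction was also the more common. Both KO libraries were below both WT libraries in density at 37.1% of those genes and above at 12.1%. The sum within 100 kb was 62 and 44 peaks in KO and 47 and 60 peaks in WT. Per 1000 peaks of the list it was 2.20 and 2.13 in KO and 2.36 and 2.91 in WT. The means were 2.16 ± 0.0535 in KO and 2.64 ± 0.384 in WT (SD, n = 2 each), a difference of -0.471. The exact two-sided permutation test gave p = 0.333, the smallest value that 2 against 2 can give, so it could not decide. The difference was -0.162 in batch 1 and -0.781 in batch 2. For CTCF the sums were 107 and 49 peaks in KO and 82 in WT, or 1.92 and 2.14 per 1000 peaks in KO and 2.10 in WT.

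**Figure D3:**
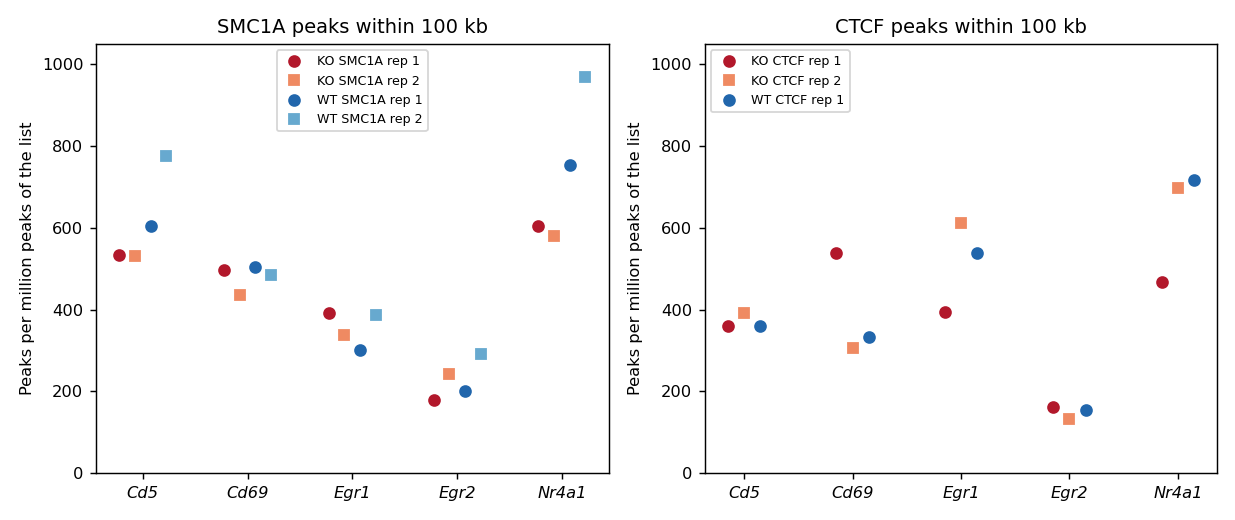
Peaks within 100 kb of each gene per 1000000 peaks of the list (vertical axis) for SMC1A (left) and CTCF (right); each point is 1 library, KO left of WT. Both KO libraries are below both WT libraries for SMC1A at Cd5 and Nr4a1.

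By gene, SMC1A density was highest at Nr4a1 and lowest at Egr2 in both genotypes. Per 1000000 peaks of the list, Nr4a1 had 604 and 580 peaks in KO and 754 and 969 peaks in WT. Cd5 had 533 and 532 peaks in KO and 604 and 775 peaks in WT. At both genes the KO libraries were below the WT libraries without overlap. This also held for 37.1% of all 12546 genes tested, so 2 of 5 is close to the background. Cd69 had 497 and 435 peaks in KO and 503 and 485 peaks in WT. Egr1 had 391 and 338 peaks in KO and 302 and 388 peaks in WT, and Egr2 had 178 and 242 peaks in KO and 201 and 291 peaks in WT. The genotypes overlapped at Egr1 and Egr2, and at Cd69 KO replicate 1 lay between the WT libraries. In both genotypes the order was Nr4a1, Cd5, Cd69, Egr1 and Egr2, and of neighbours in it only Nr4a1 and Cd5 overlapped, in WT. Each window is the gene body with 100 kb on either side. Within the lists, Nr4a1 stood at the 95.3 and 93.1 percentiles of genes in KO and at the 96.3 and 99.4 percentiles in WT, and Egr2 near the middle, from 52.7 to 70.1.

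None of the 5 genes passed the test for a difference in SMC1A density, against 1.86% of the 12546 genes tested (limma, Benjamini-Hochberg adjusted p under 0.05). By direction, 1.03% of genes were called higher and 0.829% lower in KO. Nr4a1 had the lowest p, with a log2 change of -0.52 ± 0.18 (SE; 95% interval -0.88 to -0.16; limma unadjusted p = 0.00484, adjusted p = 0.126) and rank 480 of all genes. Cd5 had a log2 change of -0.36 ± 0.20 (interval -0.75 to 0.03; limma adjusted p = 0.403) and Egr2 of -0.23 ± 0.29 (interval -0.80 to 0.34; limma adjusted p = 0.770). Cd69 had a log2 change of -0.09 ± 0.22 (interval -0.52 to 0.33; limma adjusted p = 0.885) and Egr1 of 0.07 ± 0.24 (interval -0.41 to 0.54; limma adjusted p = 0.929). The SE of each gene came almost wholly from the variance trend over all genes tested (prior degrees of freedom 483), not from its own spread. All 5 passed the filter of a mean of 3 or more peaks. Their median was -0.23, beside -0.11 over all genes (quartiles -0.31 and 0.12). Of all genes 233 were called, but leaving out KO replicate 1 or 2 gave 110 or 139, and leaving out WT replicate 1 or 2 gave 5 or 8.

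**Figure D4:**
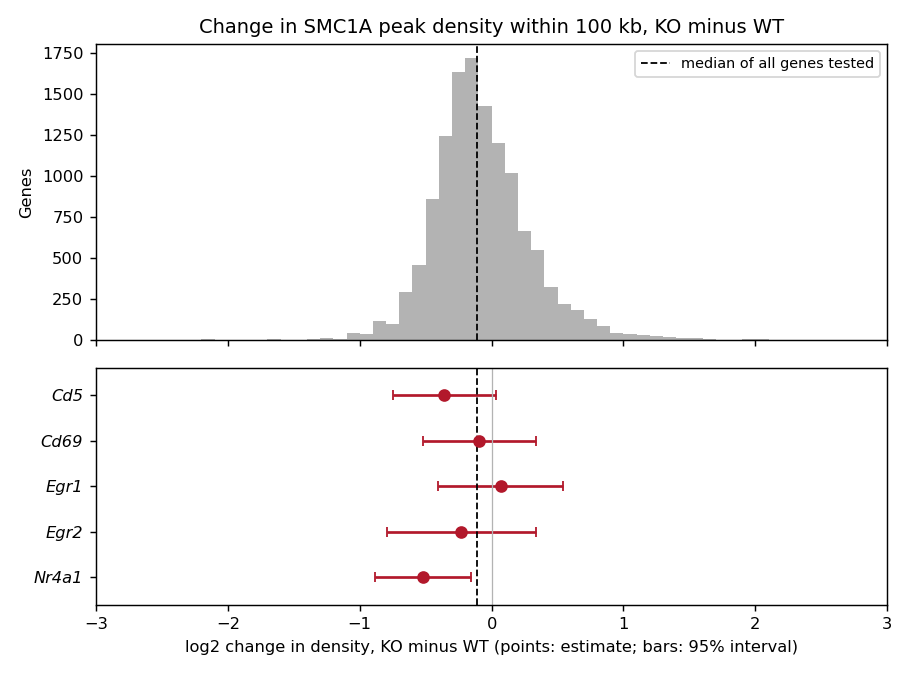
Log2 change in SMC1A peak density within 100 kb, KO minus WT (horizontal axis): histogram of all 12546 genes tested (top) and the 5 genes with 95% intervals (bottom). The dashed line is the median of all genes, -0.11, and only the interval of Nr4a1 lies wholly below it.

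Other genes induced by T cell receptor signals gave 2 calls in 35 tested, both higher in KO, and none lower, beside 1.03% of all genes called higher and 0.829% lower (limma). An unadjusted p under 0.05 was reached by 8 of the 35, beside 13.9% of all genes. The list had 37 genes, and its median log2 change was -0.11, equal to that of all genes. Ikzf2, which encodes the Ikaros family factor Helios, had 12 and 7 SMC1A peaks within 100 kb in KO and 3 and 3 peaks in WT (log2 change 1.22 ± 0.28 SE; limma adjusted p = 0.00251). Tox, an HMG box factor needed for CD4 T cell development, had 6 and 7 peaks in KO and 2 and 2 peaks in WT (1.23 ± 0.35; limma adjusted p = 0.0336). At both genes the KO libraries were above the WT libraries without overlap, as at 12.1% of all genes. Ikzf2 lost its call without KO replicate 1 (limma adjusted p = 0.183), WT replicate 1 (0.375) or WT replicate 2 (0.333), and Tox without KO replicate 2 (0.407), WT replicate 1 (0.487) or WT replicate 2 (0.504). The decreases with the lowest p did not pass. Ccr7, the chemokine receptor that guides selected thymocytes to the medulla, had 12 and 6 peaks in KO and 9 and 14 peaks in WT (-0.63 ± 0.22; limma adjusted p = 0.127). Nab2, a corepressor of EGR proteins, had 6 and 8 peaks in KO and 9 and 8 peaks in WT (-0.53 ± 0.24; limma adjusted p = 0.291). Cd6, a receptor related to CD5, lies in the Cd5 neighbourhood and shares its regions, with a log2 change of -0.42 (limma adjusted p = 0.325). All 8 DP thymocyte markers had a log2 change below 0, with a median of -0.31 beside -0.11 over all genes. A change below 0 was also the more common over all genes, as Cd28, at -0.00637, stood at their 63.0 percentile. All 4 B cell markers tested were below 0 too, with a median of -0.19. So were 3 of 5 myeloid, 2 of 3 erythroid and 1 of 2 thymic epithelial markers. Of the DP markers, 2 were called lower in KO (0.829% of all genes were), the coreceptor genes Cd8a and Cd8b1. They share 1 window and so have the same values (-0.69 ± 0.18, limma adjusted p = 0.00991, named after their values were seen). That call was lost without KO replicate 2 (limma adjusted p = 0.305), WT replicate 1 (0.625) or WT replicate 2 (0.400), within 20 kb (0.0666), for peaks of −log10 q 5 or more (0.185), with no filter (0.194), for equal-length lists (0.359) and with medians centred (0.465). None of the 4 B cell, 5 myeloid, 3 erythroid and 2 thymic epithelial markers tested passed (limma; 1 had an unadjusted p under 0.05).

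Cohesin regions near the 5 genes were shared between lists about as often as elsewhere. Of the 78 merged SMC1A regions, 30 (38.5%) were in all 4 lists, beside 35.0% genome-wide, and 27 (34.6%) in 1 list only, beside 35.8%. Of these 27, 12 were in KO replicate 1, 3 in KO replicate 2, 4 in WT replicate 1 and 8 in WT replicate 2. Regions of all 4 lists had a median lower −log10 q of 6.86 and a median width of 808 bp, against 3.68 and 213 bp for those of 1 list. A merged region spans every peak joined into it, so these widths are not compared like for like. No region was gained among the 37 held by both KO lists, beside 13.1% genome-wide. Counting error alone allows a share of up to 8.11%, but this limit takes neighbouring regions as independent. It is no test of a difference from the genome. One was lost among the 38 held by both WT lists (2.63%, beside 4.15%). The counts moved with single libraries: leaving out KO replicate 1 or 2 gave 3 or 12 gained regions, and leaving out WT replicate 1 or 2 gave 1 or 6.

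Most CTCF regions found in a single list near the 5 genes came from KO replicate 1. Of 123 merged regions, 35 (28.5%) were in all 3 lists, beside 27.0% genome-wide. A further 63 (51.2%) were in 1 list only, beside 51.6%, and 47 of these were in KO replicate 1, 2 in KO replicate 2 and 14 in WT. Regions of KO replicate 1 alone thus made up 38.2%, close to the 38.0% genome-wide. At Cd69, 19 of the 31 CTCF regions were in KO replicate 1 alone. The number of peaks within 100 kb of Cd69 was 30 and 7 in the KO lists and 13 in the WT list. The KO lists thus fell on both sides of WT, and also at Cd5 with 20 and 9 peaks against 14, at Egr1 with 22 and 14 against 21, and at Egr2 with 9 and 3 against 6. At Nr4a1 both KO lists, with 26 and 16 peaks, held fewer than the WT list with 28. With 1 WT list analysed, no test across samples was made for CTCF.

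Both KO lists lacked 14 (19.2%) of the 73 CTCF regions that the WT list held near the 5 genes, beside 18.9% genome-wide. There were 6 at Nr4a1, 5 at Egr1, 2 at Cd69, 1 at Cd5 and 0 at Egr2. They had 6 to 12 reads at the summit and a −log10 q of 1.42 to 7.44, beside a median of 14.5 reads and 6.79 over all WT CTCF peaks near the 5 genes. The strongest at Nr4a1 lay 48.6 kb above the gene at 101323405 to 101323790 (7.44), in Acvr1b, an activin receptor gene, at 101208615 to 101209115 (5.89), and at 101239967 to 101240170 (3.24). At Egr1 they lay 1.91 kb above the gene at 34866870 to 34867233 (3.80), at 34772410 to 34772688 (3.55) and at 34781861 to 34782060 (2.84). That at Cd5 was at 10783086 to 10783354 (5.34), and those at Cd69 were at 129183774 to 129183973 (3.86) and 129368723 to 129368981 (3.34). Of the 36 CTCF regions held by both KO lists, 1 (2.78%) was absent from WT, beside 8.29% genome-wide. It lay in Cd6 at 10827967 to 10828470, with a −log10 q of 1.74 and 1.91 and 16 and 17 reads. Leaving out KO replicate 1 gave 44 absent and 6 added regions, and leaving out KO replicate 2 gave 15 and 48.

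Nearly all cohesin peaks near the 5 genes lay at CTCF peaks in both genotypes. The share overlapping a CTCF peak of any list was 96.8% (60 of 62; 95% Wilson interval 89.0 to 99.1) and 97.7% (43 of 44; 88.2 to 99.6) in KO. In WT it was 95.7% (45 of 47; 85.8 to 98.8) and 91.7% (55 of 60; 81.9 to 96.4). Genome-wide the shares were 95.0% and 96.3% in KO and 95.8% and 93.8% in WT, so those near the 5 genes were close to them. The difference near the 5 genes, KO minus WT, was 3.55 percentage points (exact two-sided permutation test, p = 0.333, the smallest possible), with 1.03 points in batch 1 and 6.06 in batch 2. With the WT CTCF list alone it was -0.286 points, with peaks of −log10 q 5 or more 0.215 points and with equal-length lists 9.68 points. Of the 78 SMC1A regions, 10 overlapped no CTCF peak, and each of these was in 1 list only. Conversely 55 of the 123 CTCF regions had no SMC1A peak, and 48 of these were in 1 list only. At 25 SMC1A regions, all 4 SMC1A lists and all 3 CTCF lists had a peak. At these 25, the median SMC1A summit and that of the nearest such CTCF region were a median of 58 bp apart (range 3.5 to 401 bp), and within 100 bp at 20 of them.

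On other chromosomes, the genes most like each of the 5 in peak numbers were found by a fixed measure. Likeness was the sum over the 7 lists of absolute differences in peaks within 100 kb. For Cd5 the nearest were Zfp688 and Zfp689 (6 each) and E430018J23Rik (7), all on chromosome 7. For Cd69 they were Irf1 (5), Ccdc88c (6) and Wdr73 (6, 3 genes tied). For Egr1 they were Gm3435 (3), Gpr20 (4) and Kazald1 (4, 2 tied), and for Egr2 they were Rangap1 (2), Septin4 (2) and Ctsb (3, 11 tied). For Nr4a1 they were Keap1 (10), Abcb8 (11) and Agap3 (11, 10 tied). These sums are not scaled to the number of peaks, and Nr4a1 had the most SMC1A and CTCF regions of the 5 genes.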

How the data were processed

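CUT&RUN peak lists of SMC1A and CTCF from sorted DP thymocytes were used, 1 per library, so peaks were not called on pooled samples. Per the submitters' processing notes, the tools were MACS2, Bowtie2, Trimmomatic 1.24, SAMtools, R 4.12 and deepTools, on mm10; which control and settings MACS2 had is not given in the sources here. The authors' lists give a fold (ratio) at the summit with deposited −log10 p and −log10 q values; they hold no reads, so no count model was used. The integer score column, as deposited by the authors, was not used. Not analysed here were input, IgG and H3K27ac samples and a second WT CTCF list.

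Peaks of 1 mark that overlapped by at least 1 bp were merged. Lost regions were in all WT and no KO lists, and gained regions the reverse. A Poisson model of the caller gave pile-up and background from each peak's deposited fold and −log10 p, with −log10 p met within 0.001, for all 451 peaks but 1, in KO CTCF replicate 1. SMC1A peaks within 100 kb of each gene body (RefSeq, GRCm38.p6) were tested with limma 3.58.1 after adding 0.5, scaling to 1000000 peaks per list and taking log2, with trended variances, for genes with a mean of 3 or more peaks, and adjusted over all of them. Sums and shares were compared by exact permutation over libraries. Wilson intervals and the limit for a count of 0 (3 counts) cover counting error only. Python 3.11.15, scipy 1.17.1 and R 4.3.3 were used, and the steps were tested on simulated data. The annotation used has no exons, so exonic and intronic positions are not stated.

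The genes and lists were chosen with earlier results of these data known. Regions named are those at gene starts, the highest per gene and mark by lower −log10 q over the lists that hold it (where that is not in every list, also the highest of those in every list, an addition made after values were seen), and the lost and gained ones (up to 3 per gene for CTCF); others are marked as chosen after their values were seen. Of the other signal genes, those called and the 2 lowest p in each direction are named. Replicate numbers are the batches of the labels and so pair the libraries, although same-numbered KO and WT SMC1A libraries did not deviate together from the genotype means (r = -0.00788 over 12546 genes).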

Additional observations from a re-analysis of the deposited data

How the results depend on the processing

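None of the 5 genes was called by limma in any of the 13 alternatives to the density test. Nr4a1 ranged from -0.70 to -0.35 (log2; limma adjusted p of 0.119 to 0.620) and Cd5 from -0.63 to -0.18 (0.384 to 0.822). The sign turned at Cd69 (0.11 with peaks of −log10 q 5 or more, 0.054 with lists of equal length), Egr2 (0.22 with −log10 q 5 or more, 0.0099 without WT replicate 2, from -0.47 to 0.0099 with a library left out) and Egr1 (-0.40 within 20 kb, -0.25 within 50 kb, -0.02 without KO replicate 1, -0.10 without WT replicate 1, from -0.10 to 0.24 with a library left out); the cause was not tested. Where a left-out library leaves 1 in a genotype, that library is assumed to vary like the others. With the replicate block 209 genes were called in place of 233, and no call changed among the 5 genes (adjusted p of 0.434 at Cd5 and 0.154 at Nr4a1).

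Genes called numbered 22 with −log10 q of 5 or more (18 higher, 4 lower), 62 within 20 kb, 154 within 50 kb, 61 with no filter (45 higher, 16 lower), 5 to 139 with a library left out (36 higher and 74 lower without KO replicate 1), and 0 with lists of equal length (limma; 1549 at an unadjusted p under 0.05) or with medians centred (1305), in place of 129 higher and 104 lower. Ikzf2 lost its call in 8 of 13 alternatives (limma adjusted p of 0.00258 to 0.435) and Tox in 6 of 11 (0.0114 to 0.504).

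Of regions near the 5 genes, 5 SMC1A regions were lost with lists of equal length and 2 to 10 with a library left out. Gained ones numbered 2 with −log10 q of 5 or more, 1 by summits within 200 bp and 1 to 12 with a library left out. CTCF regions absent from KO numbered 5 with −log10 q of 5 or more, 8 with lists of equal length, 3 within 20 kb, 8 within 50 kb, 25 by summits and 15 to 44 with a KO library left out. The 1 added CTCF region was 0 under these 5 settings and under an overlap of 0.5 of the shorter peak, and 6 to 48 with a library left out. Counts by summits or by an overlap of 0.5 are of single peaks of replicate 1, not of merged regions. The difference in sums per 1000 peaks kept its sign (-0.743 to -0.199 with a library left out). That in CTCF overlap was 1.51 to 5.58 points with a library left out, 0.215 with −log10 q of 5 or more (exact permutation p = 1) and 9.68 with lists of equal length, and turned to -0.286 with the WT CTCF list alone. Depth is not given, and the lowest summits near the 5 genes held 4 to 6 reads in the SMC1A lists.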
